A study of Mus musculus with 6 samples.

Results

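The 10 genes described here encode the proteins that send pyruvate, the end product of glycolysis, either to lactate and out of the cell or into the mitochondrion. They were taken by name. The list holds lactate dehydrogenase subunits (*Ldha*, *Ldhb*), plasma membrane lactate carriers (*Slc16a1*, *Slc16a3*) and pyruvate dehydrogenase kinases (*Pdk1*, *Pdk2*, *Pdk3*). It also holds the mitochondrial pyruvate carrier (*Mpc1*, *Mpc2*) and the E1α subunit of pyruvate dehydrogenase (*Pdha1*). All 10 were found among the 46983 genes measured, and all 10 had a mean of at least 0.5 FPKM (fragments per kilobase of gene length per 1000000 counted reads), the level above which 13312 genes were tested.

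RNA was sequenced in bulk from splenic B cells of C57BL/6 mice, with 3 libraries labelled WT and 3 labelled *Hif1a* KO. The KO cells came from *Hif1a* f/f mice crossed with *Mb1*-cre, a cre driver of the B lineage, and the WT cells came from littermates that were *Hif1a* f/+ with cre or *Hif1a* f/f without it. Which of these 2 control genotypes each WT library had, and the age of the mice, are not given in the sources used here. All 6 cultures received LPS at 5 μg/ml for 3 days together with 10 ng/ml of each of the cytokines TGF-β, IL-5 and BAFF, which drives switching to IgA. The study's methods describe such cultures as started from sorted follicular B cells, and the labels name splenic B cells only. Whether the libraries came from separate mice is not stated. The p-values below therefore measure the spread between these libraries, which may be technical at least in part. The comparison asks how the loss of HIF-1α, the oxygen-sensitive subunit of the transcription factor HIF-1, altered RNA levels in switching B cells.

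Lactate dehydrogenase reduces pyruvate to lactate and so regenerates the NAD+ that glycolysis consumes. Its A subunit is the form typical of glycolytic cells, whereas its B subunit is typical of cells that oxidize lactate. Pyruvate that is not reduced enters the mitochondrion through a heterodimer of MPC1 and MPC2 and is turned into acetyl-CoA by the pyruvate dehydrogenase complex, which the PDK enzymes switch off by phosphorylating its E1α subunit, PDHA1. *Ldha*, *Pdk1* and *Slc16a3* are textbook HIF-1 targets in hypoxic cells, and activated B cells take up glucose and release lactate.

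The libraries held between 25.0 M and 37.2 M counted reads. B cell markers summed to 3045 to 4119 FPKM in every library and the markers of T cells to at most 1.68 FPKM. WT replicate 1 stood apart from the other WT libraries. Along principal component 1 (54.7% of variance) it lay at -15.7, on the side of the KO libraries (-19.5 to -7.10), while WT replicates 2 and 3 lay at 26.2 and 25.9. KO replicate 2 stood apart on the second component and was the sole library with more than a trace of the Y-linked gene *Ddx3y* (43.3 FPKM, against at most 0.00945 FPKM elsewhere). It also had 0.0140 FPKM of the X inactivation gene *Xist*, against 167 to 279 FPKM elsewhere. By these genes KO replicate 2 was male and the other libraries were female. KO replicate 2 thus came from a different mouse or mice than the other KO libraries. Whether the remaining libraries came from separate mice is not known. Summed macrophage markers were 74.3, 170 and 119 FPKM in the WT and 67.7 to 79.4 FPKM in the KO libraries, and none of the 10 was at 0 in every KO library. Neutrophil markers, of which 5 of 6 were at 0 in every KO library, reached 32.7 FPKM in WT replicate 1 against at most 0.442 FPKM elsewhere. Summed plasma cell markers were 715, 429 and 399 FPKM in WT replicates 1 to 3 and 681, 505 and 906 FPKM in the KO replicates. *Hif1a* itself had 36.5, 49.8 and 45.8 FPKM in WT and 46.5, 45.6 and 52.8 FPKM in KO libraries. Because a gene-level value counts reads from all exons, it does not check whether the floxed part was removed.

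The promoters of 4 members are shown because HIF-1 acts through the hypoxia response element, whose core reads ACGTG or GCGTG on either strand. RefSeq windows from GRCm38.p6, which reach from 250 bases before to 50 bases after an annotated start, were found for all 10 members (14 windows). Capitals mark every match to the core, with overlapping matches drawn as 1 stretch, so that CACGTG, which reads as a core on both strands, stands in capitals as a whole. *Ldha* and *Pdk1* have a second window each, not printed, with 2 stretches and 0. The first *Ldha* window (chr7:46845554-46845853, + strand) has 5 stretches, the *Slc16a3* window (chr11:120948817-120949116, + strand) and the first *Pdk1* window (chr2:71872974-71873273, + strand) 2 each, and the *Ldhb* window (chr6:142507908-142508207, - strand) 1.
Ldha: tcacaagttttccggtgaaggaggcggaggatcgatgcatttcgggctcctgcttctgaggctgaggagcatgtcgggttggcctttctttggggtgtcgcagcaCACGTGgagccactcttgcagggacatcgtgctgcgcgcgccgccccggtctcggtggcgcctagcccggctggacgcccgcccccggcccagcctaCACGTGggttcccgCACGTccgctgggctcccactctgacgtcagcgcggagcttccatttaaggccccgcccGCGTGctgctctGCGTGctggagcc
Slc16a3: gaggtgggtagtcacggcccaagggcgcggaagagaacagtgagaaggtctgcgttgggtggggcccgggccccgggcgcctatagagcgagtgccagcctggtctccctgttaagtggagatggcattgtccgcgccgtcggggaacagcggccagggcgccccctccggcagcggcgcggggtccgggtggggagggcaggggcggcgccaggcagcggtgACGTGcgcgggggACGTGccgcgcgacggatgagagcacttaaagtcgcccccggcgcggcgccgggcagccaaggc
Pdk1: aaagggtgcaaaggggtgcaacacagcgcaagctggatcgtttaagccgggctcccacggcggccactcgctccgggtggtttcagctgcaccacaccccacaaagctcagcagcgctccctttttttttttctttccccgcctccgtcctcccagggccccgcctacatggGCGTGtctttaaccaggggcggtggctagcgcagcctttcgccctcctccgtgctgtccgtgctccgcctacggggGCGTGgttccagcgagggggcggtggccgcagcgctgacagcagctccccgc
Ldhb: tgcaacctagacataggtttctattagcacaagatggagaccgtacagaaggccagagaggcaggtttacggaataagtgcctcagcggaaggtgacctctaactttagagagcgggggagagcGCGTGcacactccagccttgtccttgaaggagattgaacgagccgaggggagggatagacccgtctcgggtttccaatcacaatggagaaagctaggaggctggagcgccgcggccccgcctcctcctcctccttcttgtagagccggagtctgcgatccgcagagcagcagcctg

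Every member had the core in at least 1 of its windows, and 11 of the 14 windows held it. Among all 32851 windows of the same length, 43.8% held it, so a single match is common. Windows with at least 5 stretches, as in the first window of *Ldha*, made up 0.767% of all windows, and windows with at least 4, as in *Slc16a1*, *Pdk3* and *Pdha1*, made up 2.44%. The form ACGTG was in 5 of the 14 windows and in 19.6% of all windows. CACGTG, which is also the binding motif of MYC and other E-box factors, was in the windows of *Ldha*, *Slc16a1* and *Pdk2*, and in 7.15% of all windows. A match describes these letters, and binding was not measured here.

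None of the 10 pyruvate fate genes differed between *Hif1a* KO and WT B cells by limma at an adjusted p under 0.05, at which 0 of 13312 genes (0.00%) passed. For the 3 most abundant members, *Ldha*, *Pdha1* and *Pdk3*, the 95% intervals of the KO to WT ratio lay between 0.848 and 1.11. Here and below, these intervals are for the ratio of FPKM + 1, which narrows them for less abundant genes. The lowest adjusted p of a member was 0.626, shared by the 2 scarce genes *Slc16a3* and *Ldhb*. At an unadjusted p under 0.05, 1 member (*Slc16a3*, lower in KO) passed, against 929 (6.98%) of all genes tested. The KO and WT values did not overlap for 2 members (*Ldha* and *Ldhb*, both lower in KO), against 10.1% of all genes in either direction and 6.03% with every KO value below every WT value. Of the 10 log2 fold changes 7 were negative, and their median was -0.045 on the log2(FPKM + 1) scale, beside -0.028 over all genes tested. In bulk RNA, a change in the makeup of the culture and a change in RNA per cell cannot be told apart.

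**Figure D1:**
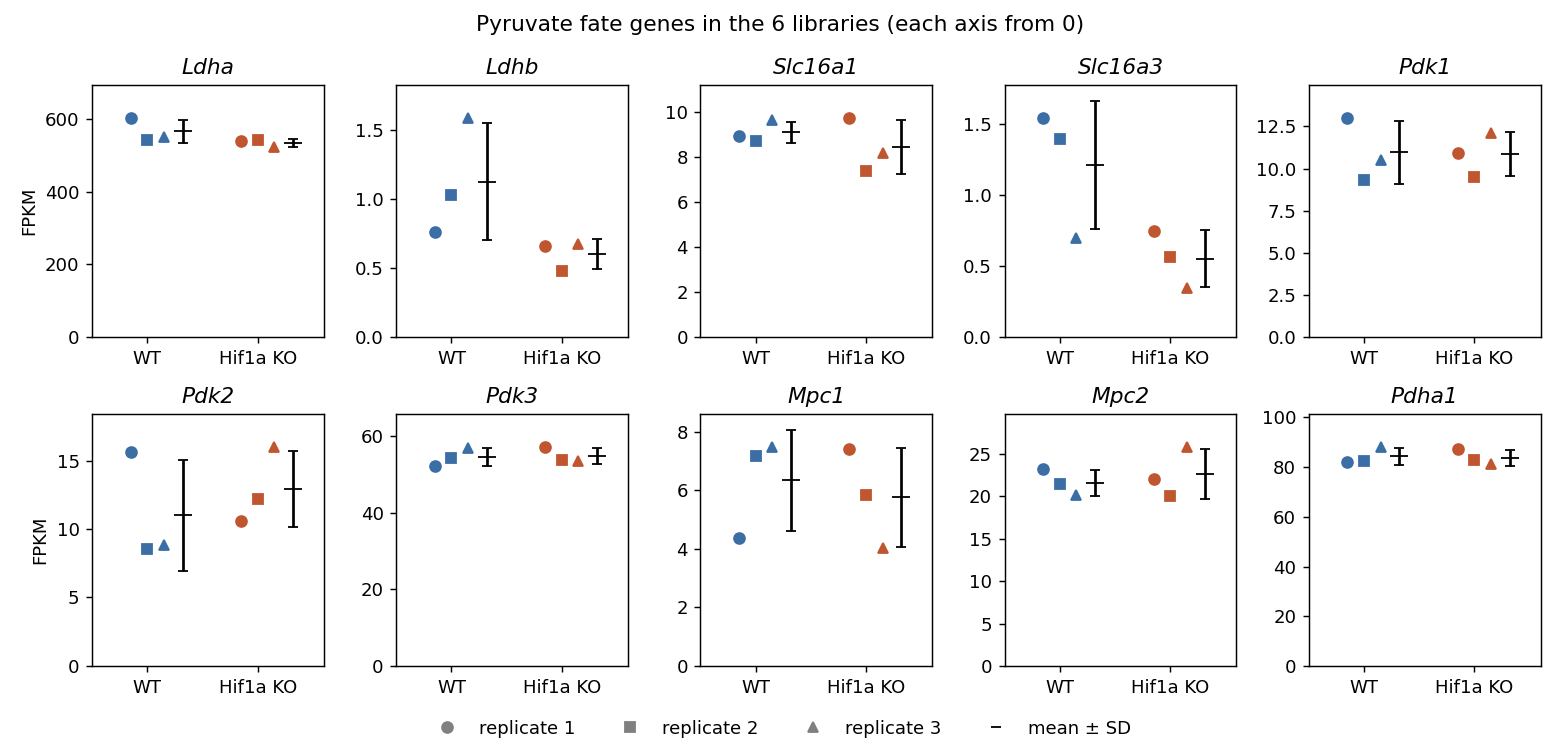
FPKM of the 10 pyruvate fate genes in each of the 3 WT and 3 *Hif1a* KO libraries, 1 panel per gene with its own axis from 0, with the mean ± SD beside the points. *Ldha* sits between 522 and 603 FPKM in all libraries, *Pdk2* and *Mpc1* spread widely within each group, and *Slc16a3* and *Ldhb* lie below 1.6 FPKM throughout.

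*Ldha* (ENSMUSG00000063229, chr7:46841475-46855627), the gene of the pyruvate-reducing subunit, had 603, 543 and 551 FPKM in WT and 539, 542 and 522 FPKM in KO libraries. The KO values were the lower ones, but by a narrow gap: the lowest WT library had 542.7 FPKM and the highest KO library 541.9 FPKM. *Ldha* ranked 162 by mean FPKM among the genes tested and rested on 12591 to 20937 reads per library. Its group means were 565 ± 32.7 and 534 ± 11.0 FPKM (SD, n = 3 each). On the log2 scale KO differed from WT by -0.080 (SE 0.066), and by -0.033 without WT replicate 1, and the 95% interval of the KO to WT ratio ran from 0.848 to 1.05. Annotated pseudogene copies held at most 0.305% of the reads counted on *Ldha* and its copies.

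*Ldhb* (ENSMUSG00000030246, chr6:142490249-142507957), the gene of the other main subunit, was close to the limit of measurement. It had 0.760, 1.03 and 1.59 FPKM in WT and 0.660, 0.481 and 0.671 FPKM in KO libraries, from 24, 27 and 35 reads against 14, 14 and 17. Each KO library was below each WT library, and WT replicate 3 was the highest. Its log2 fold change was -0.39 (SE 0.17), with a limma p of 0.0526 and an adjusted p of 0.626. It was -0.52 without WT replicate 1, with an adjusted p of 0.0884, and -0.76 with a pseudocount of 0.1, since a pseudocount of 1 compresses the change of so low a gene.

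Within every library *Ldha* exceeded *Ldhb* by a wide margin. The *Ldha* to *Ldhb* ratio of FPKM was 793, 528 and 346 in WT and 817, 1128 and 777 in KO libraries. WT replicate 1 lay among the KO libraries, and the groups overlapped. The counting error of the 14 to 35 *Ldhb* reads enters each of these ratios.

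The monocarboxylate carriers move lactate together with a proton across the plasma membrane. *Slc16a1* (ENSMUSG00000032902, chr3:104638668-104658462), which encodes the widely expressed carrier MCT1, had 8.93, 8.74 and 9.64 FPKM in WT and 9.75, 7.37 and 8.19 FPKM in KO libraries. The highest and the lowest value were both KO libraries. Its log2 fold change was -0.10 (SE 0.11) and the 95% interval of the ratio was 0.777 to 1.11.

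*Slc16a3* (ENSMUSG00000025161, chr11:120948480-120960868), which encodes the lactate exporter MCT4 of strongly glycolytic cells, had 1.55, 1.40 and 0.697 FPKM in WT and 0.749, 0.565 and 0.346 FPKM in KO libraries. WT replicate 3 fell among the KO libraries, which alone kept the groups from separating. These values rest on 89, 67 and 28 reads against 29, 30 and 16. The log2 fold change was -0.50 (SE 0.19), with a 95% interval of -0.95 to -0.04, a limma p of 0.0366 and an adjusted p of 0.626. It was -0.39 without WT replicate 1, -0.68 without WT replicate 3, -0.99 with a pseudocount of 0.1 and -1.17 by limma-voom on the recovered reads, with the adjusted p above 0.05 in each. *Slc16a3* is also expressed by myeloid cells, whose macrophage markers summed to 74.3, 170 and 119 FPKM in the same WT libraries and to 67.7 to 79.4 FPKM in KO. The largest part of each sum was *Adgre1*. Both *Adgre1* and *Cd68* overlapped between the groups. *Lyz2* was 6.18, 58.3 and 26.2 FPKM in WT and at most 3.70 FPKM in KO libraries. Neutrophil markers summed to 32.7 FPKM in WT replicate 1, the library with the highest *Slc16a3*, and to at most 0.442 FPKM elsewhere. Dendritic cell markers summed to 16.2 to 17.9 FPKM in WT and to at most 13.0 FPKM in KO libraries. Of the 6, 1 was at 0 in every KO library, and it was at most 0.0589 FPKM in WT. Of the 4 with a mean above 1 FPKM, *Flt3*, *Itgax* and *Zbtb46* overlapped between the groups. *Siglech* did not, at 2.77 to 5.36 FPKM in WT and 1.86 to 2.50 FPKM in KO libraries. The part of these cells in the result was not tested. The *Slc16a3* to *Slc16a1* ratio of FPKM was 0.173, 0.160 and 0.0723 in WT and 0.0769, 0.0766 and 0.0423 in KO libraries, so *Slc16a1* was the higher carrier in each.

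The pyruvate dehydrogenase kinases inhibit the entry of pyruvate carbon into the TCA cycle. *Pdk1* (ENSMUSG00000006494, chr2:71873224-71903858), the kinase best known as a HIF-1 target, had 13.0, 9.34 and 10.5 FPKM in WT and 10.9, 9.51 and 12.1 FPKM in KO libraries. The KO values lay inside the WT range. KO differed from WT by -0.0057 (SE 0.14) on the log2 scale and the 95% interval of the ratio was 0.795 to 1.25, and the sign turned positive under median-ratio scaling (0.035), under quantile normalization (0.027), and without WT replicate 1 (0.11) or KO replicate 2 (0.079).

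*Pdk3* (ENSMUSG00000035232, chrX:93764607-93832201) was the most abundant kinase, at 52.4, 54.3 and 57.0 FPKM in WT and 57.3, 53.7 and 53.6 FPKM in KO libraries. The groups overlapped almost wholly, and the highest library exceeded the lowest by 1.09-fold, beside a median of 1.25-fold over the 9271 genes with a mean of at least 5 FPKM. Its log2 fold change was 0.0085 (SE 0.063) with a 95% interval of the ratio from 0.908 to 1.11, and it turned negative without WT replicate 1 (-0.020) or without KO replicate 1 (-0.022). *Pdk3* is X-linked, and without KO replicate 2, the library with *Ddx3y*, the value was 0.023.

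*Pdk2* (ENSMUSG00000038967, chr11:95026258-95041354), a kinase of broad expression, was the kinase with the widest spread. It had 15.7, 8.52 and 8.83 FPKM in WT and 10.6, 12.2 and 16.0 FPKM in KO libraries. WT replicate 1 and KO replicate 3 were the high libraries, and both also had more plasma cell marker RNA (715 and 906 FPKM) than any other library. KO replicate 1, however, had 681 FPKM of these markers with 10.6 FPKM of *Pdk2*, less than KO replicate 2 with 505 and 12.2 FPKM, and the part of those cells was not tested. A log2 fold change of 0.25 (SE 0.24) was fitted, the 95% interval of the ratio was 0.795 to 1.77, and without WT replicate 1 the fold change was 0.51 with an adjusted p of 0.101.

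Of the summed FPKM of the 3 kinases, *Pdk3* made up 64.6% to 75.2%, *Pdk1* 12.6% to 16.1% and *Pdk2* 11.6% to 19.6% over the 6 libraries. The *Pdk3* share was 71.5 ± 5.97% in WT and 69.8 ± 3.73% in KO cells (SD, n = 3 each). The *Pdk3* to *Pdk1* ratio was 4.03 to 5.81 and the *Pdk1* to *Pdk2* ratio 0.758 to 1.19, and both overlapped between the groups.

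**Figure D2:**
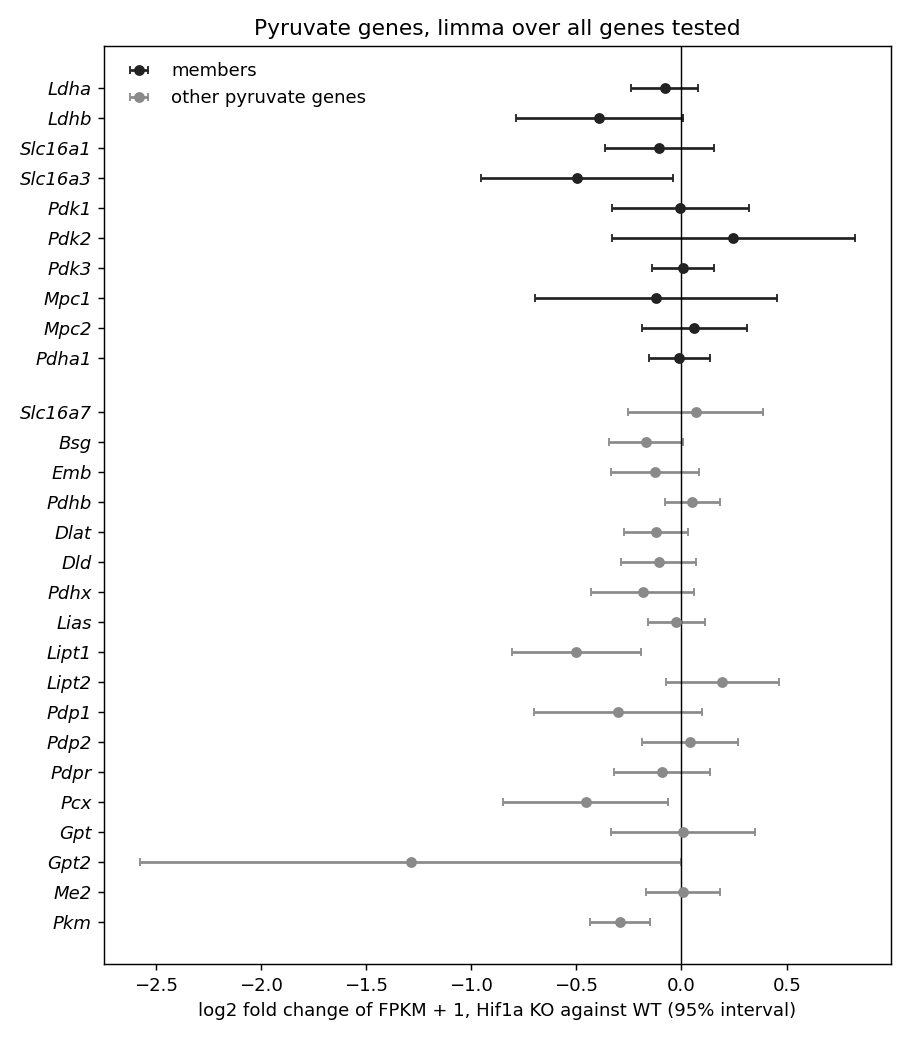
Log2 fold change of FPKM + 1 in *Hif1a* KO against WT cells with its 95% interval from limma, for the 10 members (black) and the 18 tested genes of the other pyruvate lists (grey). Intervals are narrow for abundant genes such as *Ldha* (-0.24 to 0.08) and wide for *Pdk2* (-0.33 to 0.82), and *Gpt2* has the lowest value.

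The mitochondrial pyruvate carrier needs both of its subunits. *Mpc2* (ENSMUSG00000026568, chr1:165460637-165481214) had 23.2, 21.4 and 20.2 FPKM in WT and 22.0, 20.1 and 25.9 FPKM in KO libraries. KO replicate 3 was the high library and the rest overlapped. KO differed from WT by 0.061 (SE 0.11) on the log2 scale, the 95% interval of the ratio was 0.877 to 1.24, and the sign turned without KO replicate 3 (-0.034).

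*Mpc1* (ENSMUSG00000023861, chr17:8282904-8297661) had 4.36, 7.19 and 7.50 FPKM in WT and 7.42, 5.84 and 4.05 FPKM in KO libraries. WT replicate 1 and KO replicate 3 were low and each group spanned most of the range. The log2 fold change was -0.12 (SE 0.24) and the 95% interval of the ratio was 0.618 to 1.37, with values of -0.33 without WT replicate 1 and 0.076 without KO replicate 3. The *Mpc1* to *Mpc2* ratio of FPKM ran from 0.157 to 0.372 and overlapped between the groups.

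These *Mpc1* values are uncertain, because most reads stood on a near-identical copy. *Mpc1-ps*, an annotated processed pseudogene (chr12:110858565-110858894, - strand) that was singled out after its values were seen, matched *Mpc1* transcripts over 330 bases at 99.7% identity. It was listed at 84.7, 127 and 129 FPKM in WT and 79.8, 87.8 and 91.3 FPKM in KO libraries. Of the reads counted on either gene, 83.9% to 91.6% stood on the copy. How reads with several alignments were assigned is not stated, so reads of the shared stretch cannot be told apart.

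Summed over both loci, 30.9, 46.8 and 47.8 reads per 1000000 were counted in WT and 31.4, 32.9 and 32.9 in KO libraries. WT replicates 2 and 3 were high, and WT replicate 1 was below all KO libraries. The log2 ratio of the group means was -0.37. For *Mpc1-ps* alone the log2 fold change was -0.37 (SE 0.16) with a limma p of 0.0595 and an adjusted p of 0.626, and without WT replicate 1 it was -0.57 with an adjusted p of 0.0109. *Mpc1-ps* passed in no other fit. That contrast without WT replicate 1 called 9.40% of all genes tested, and 0 of the 10 members.

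**Figure D3:**
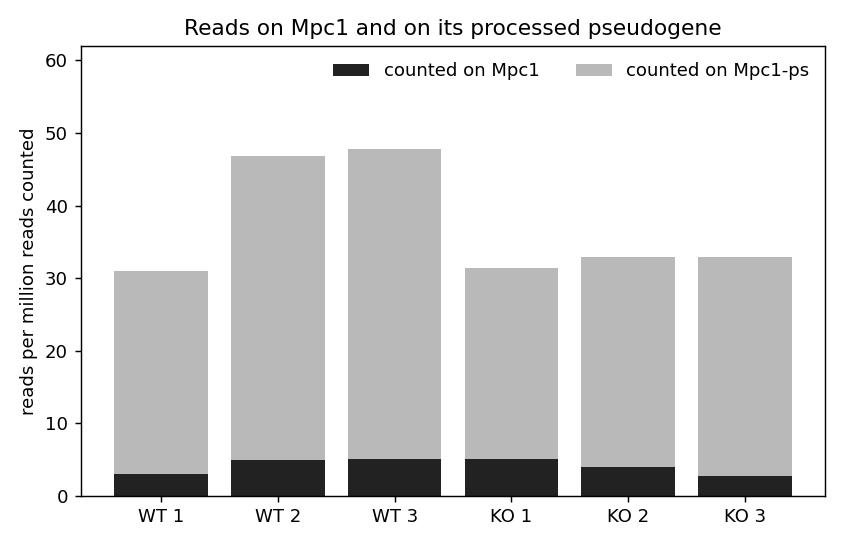
Reads per 1000000 counted reads that were assigned to *Mpc1* (black) and to its processed pseudogene *Mpc1-ps* (grey), stacked for each library. The copy holds 83.9% to 91.6% of the reads, and the sum is highest in WT replicates 2 and 3 (46.8 and 47.8).

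*Pdha1* (ENSMUSG00000031299, chrX:160122209-160138413), which encodes the E1α subunit that the kinases phosphorylate, had 82.0, 82.6 and 88.2 FPKM in WT and 87.2, 82.7 and 81.1 FPKM in KO libraries. Group means were 84.3 ± 3.41 and 83.7 ± 3.20 FPKM (SD, n = 3 each). Its log2 fold change was -0.010 (SE 0.061), the 95% interval of the ratio was 0.898 to 1.10, and the highest library exceeded the lowest by 1.09-fold. The sign turned under median-ratio scaling (0.034) and without WT replicate 3 (0.022) or KO replicate 3 (0.012). *Pdha1* is X-linked, and without KO replicate 2, the library with *Ddx3y*, the value was -0.002. *Map3k15*, a gene on the opposite strand that overlaps *Pdha1*, had 0.716 to 1.58 FPKM.

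The ratio of *Ldha* to *Pdha1* sets the gene of the lactate branch against that of the mitochondrial branch within each library. It was 7.35, 6.57 and 6.24 in WT and 6.18, 6.56 and 6.43 in KO libraries. WT replicate 1 was the highest, WT replicate 3 was below the KO replicates 2 and 3, and the groups overlapped.

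Among the members, levels in FPKM fell in the order *Ldha*, *Pdha1*, *Pdk3*, *Mpc2*, *Pdk2*, *Pdk1*, *Slc16a1*, *Mpc1*, *Slc16a3* and *Ldhb* by the WT means, from 565 ± 32.7 to 1.13 ± 0.423 FPKM (SD, n = 3 each). Across the 6 libraries, *Ldha*, *Pdha1*, *Pdk3* and *Mpc2* each kept apart from their neighbours in this order. *Pdk2* (8.52 to 16.0 FPKM), *Pdk1* (9.34 to 13.0 FPKM) and *Slc16a1* (7.37 to 9.75 FPKM) overlapped, *Slc16a1* overlapped with *Mpc1* (4.05 to 7.50 FPKM), and *Slc16a3* overlapped with *Ldhb*.

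The order depends in part on the gene length behind the FPKM. For 9 of the 10 members, the length the authors divided by was within 1 base of the mean length of the annotated transcripts, which include short fragments. Alternatives chosen after the data were seen were the longest annotated transcript and all exons joined. With either, *Ldha*, *Pdha1* and *Pdk3* stayed the top 3 in this order, with *Mpc1* taken without the reads on *Mpc1-ps*. *Slc16a1*, annotated with a single transcript of 4426 bases, was the seventh by the authors' length and the fourth by joined exons, at 9.10 FPKM in each. *Slc16a3* and *Ldhb* changed places at the bottom. The ratio of the WT means of *Ldha* and *Ldhb* was 502 by the authors' length and 262 by joined exons, and that of *Pdk3* and *Pdk1* was 4.98 and 8.72. Each gene is divided by the same length in all libraries. In the log2 fold change of KO against WT cells, this choice therefore enters through the pseudocount alone. It also enters the filter on mean FPKM and the mean level that the prior variance follows. By the longest transcript, *Slc16a3* had means of 0.433 FPKM in WT and 0.197 FPKM in KO libraries. By joined exons its WT and KO means were 0.353 and 0.161 FPKM. All of these were below the mean FPKM required for a test. *Ldhb* by joined exons had means of 0.608 FPKM in WT and 0.326 FPKM in KO libraries, which also average below that level. The tests were not repeated with these lengths.

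**Figure D4:**
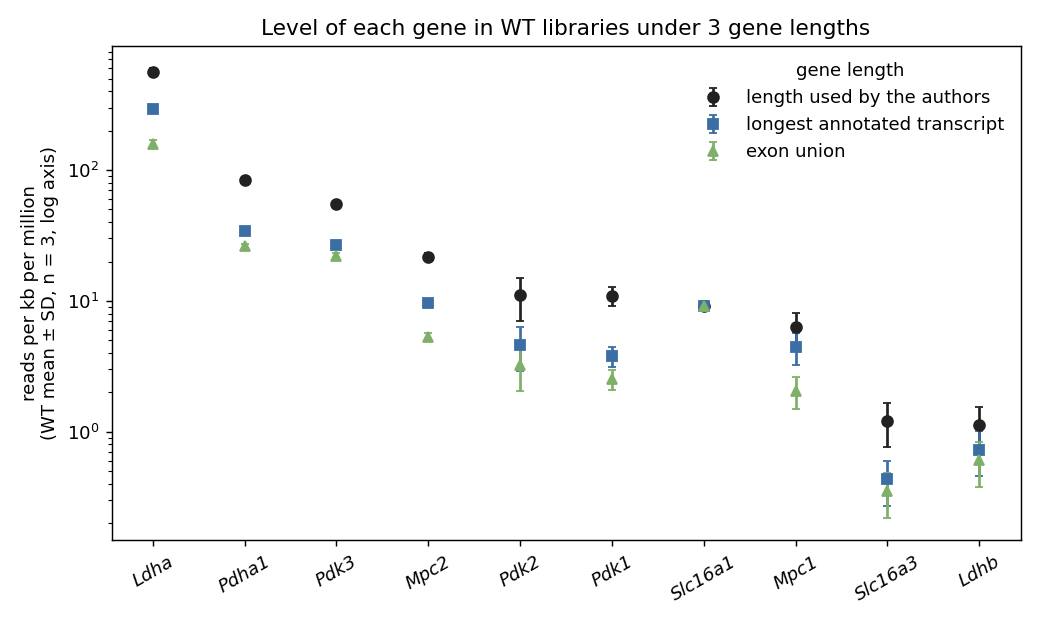
Level of each of the 10 genes in the 3 WT libraries (mean ± SD) in FPKM on a log axis, computed with the gene length used by the authors, the longest annotated transcript and all exons joined. *Ldha* leads under each length (565, 291 and 159), while *Slc16a1* stays at 9.10 and passes other genes. *Mpc1* is drawn without the reads on *Mpc1-ps*.

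Around the members, 30 other genes of pyruvate and lactate metabolism were listed, of which 18 were tested. None passed an adjusted p of 0.05, and 12 had negative and 6 positive log2 fold changes, with a median of -0.11. At an unadjusted p under 0.05, 4 were lower in KO and 0 higher, beside 6.98% of all genes in both directions. In 3 every KO value was below every WT value (6.03% of all genes), and in 1 every KO value was above. The 12 that were not tested include the testis forms *Ldhc* and *Pdha2* and the lactate receptor gene *Hcar1*, each at 0 in all libraries.

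None of the lactate dehydrogenase genes besides the 2 members was tested. Of the carriers and chaperones, *Bsg*, which encodes basigin, the chaperone of MCT1 and MCT4, had 177, 190.0 and 193 FPKM in WT and 165, 155 and 179 FPKM in KO libraries. KO differed by -0.17 on the log2 scale (SE 0.074, adjusted p 0.626 by limma), and the groups overlapped through WT replicate 1 and KO replicate 3. *Emb*, the gene of the related chaperone embigin, had -0.13 (SE 0.088), and *Slc16a7*, the gene of MCT2, had 0.068 (SE 0.14) at 0.844 to 1.39 FPKM.

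Of the other genes of the pyruvate dehydrogenase complex and its lipoylation, 7 of 8 were tested, of which 5 had negative and 2 positive log2 fold changes. *Pdhb*, the E1β partner of PDHA1, had 80.0 to 81.4 FPKM in WT and 81.1 to 86.7 FPKM in KO libraries, close to the level of *Pdha1* by the authors' lengths. By the longest transcript the WT means of *Pdhb* and *Pdha1* were 50.4 and 34.5 FPKM, and by joined exons 31.0 and 26.3 FPKM. The log2 fold changes of *Pdhb*, *Dlat* (E2), *Dld* (E3) and *Pdhx* (the E3-binding protein) were 0.052, -0.12, -0.11 and -0.19, and that of *Pdhx* was -0.28 without WT replicate 1, with an adjusted p of 0.0823. *Lias*, the lipoyl synthase gene, had -0.025. *Lipt1*, a lipoyltransferase gene, had 2.63, 3.22 and 3.16 FPKM in WT and 1.45, 2.12 and 1.95 FPKM in KO libraries, a log2 fold change of -0.50 (SE 0.13, limma p 0.00658, adjusted p 0.626) without overlap. *Lipt2*, the gene of the octanoyltransferase of the same lipoylation pathway, was the gene with every KO value above WT, at 1.25 to 1.30 against 1.40 to 1.89 FPKM.

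Of the genes that regulate the complex, *Pdp1* and *Pdp2* encode phosphatases that oppose the kinases, and *Pdpr* encodes a regulatory subunit of the phosphatase. *Pdp1*, *Pdp2* and *Pdpr* had log2 fold changes of -0.30, 0.041 and -0.091, with overlapping groups. The remaining kinase gene, *Pdk4*, was at 0 in 5 of 6 libraries and at 0.0217 FPKM in the other one.

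Of the other routes to and from pyruvate, 5 of 8 genes were tested, and *Gpt2* had the lowest log2 fold change of all pyruvate genes tested. *Pkm*, which encodes the pyruvate kinase that forms pyruvate, had 309, 321 and 319 FPKM in WT and 258, 270 and 247 FPKM in KO libraries without overlap, a log2 fold change of -0.29 (SE 0.060, limma p 0.00185, adjusted p 0.626). *Pcx*, the gene of pyruvate carboxylase, had 3.27, 5.33 and 5.11 FPKM in WT and 3.21, 3.10 and 2.71 FPKM in KO libraries, so that WT replicate 1 was just above the KO range. With all 6 libraries its log2 fold change was -0.45 (SE 0.17, limma p 0.0292, adjusted p 0.626). *Gpt2*, the gene of mitochondrial alanine aminotransferase, had 3.22, 16.2 and 17.9 FPKM in WT and 3.67, 3.11 and 3.92 FPKM in KO libraries, so that WT replicate 1 lay within the KO range, and its log2 fold change was -1.29 (SE 0.54, limma p 0.0497, adjusted p 0.626). Without WT replicate 1, *Pkm*, *Pcx* and *Gpt2* passed, with log2 fold changes of -0.31, -0.64 and -1.99 and adjusted p values of 0.0335, 0.0186 and 0.00126 by limma, in a contrast that called 9.40% of all genes. That contrast leaves out the lowest WT value of each of these genes, and none of them passed in any other fit. *Me2*, the gene of the mitochondrial malic enzyme, had a log2 fold change of 0.0060 (SE 0.074), and the alanine aminotransferase gene *Gpt* one of 0.0091 (SE 0.14).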

How the data were processed

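Bulk RNA-seq of 3 WT and 3 *Hif1a* KO libraries was analysed, with groups and numbering as labelled. The authors removed low-quality and adapter reads, used TopHat v2.0.12 for paired-end alignment to mm10 (index by Bowtie v2.2.3), counted reads per gene with HTSeq v0.6.1 and deposited FPKM values, 1 column per library. The strand setting, the handling of multiply aligned reads and the annotation release are not given in the sources used here.

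The 10 members and all lists were chosen with earlier results of these data known. Symbols, coordinates and transcript lengths came from GENCODE vM21 (GRCm38), which held 46488 of 46983 gene IDs. Reads and library totals were recovered as whole multiples for 25716 of 25717 genes (tolerance 0.02 reads). Tests used limma 3.58.1 in R 4.3.3 on log2(FPKM + 1) with the prior variance following the mean level, two-sided, for genes averaging at least 0.5 FPKM, with Benjamini-Hochberg adjustment over all genes tested. The study tested counts, so a count test was replaced because the deposited unit is FPKM. A pseudocount understates changes of low genes. With 3 against 3 libraries, a two-sided exact permutation test of a single value cannot go below p = 0.1, so none is given. All members were named, other pyruvate genes were named only if tested or at or near 0, and markers by list. Single macrophage and dendritic cell markers were named where their mean was above 1 FPKM. Near-identical copies were sought with blastn among GENCODE transcripts (at least 95% identity over at least 200 bases). The fits were tested on simulated data. Alternatives were a pseudocount of 0.1, other filters, median-ratio scaling, quantile normalization, a replicate block, robust moderation, voom on recovered reads and each library left out.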

Additional observations from a re-analysis of the deposited data

How the results depend on the processing

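No member passed an adjusted p of 0.05 in any of the 15 fits, and the adjusted p of members ranged from 0.0884 to 1.0 over the 14 alternatives. Of 138 log2 fold changes of members under these alternatives, 127 kept their direction and 11 did not. *Pdk1* was 0.035 with median-ratio scaling, 0.027 with quantile normalization and -0.11 to 0.11 when 1 library was left out, and *Pdha1* was 0.034 with median-ratio scaling and -0.040 to 0.022 when 1 library was left out. When 1 library was left out, *Pdk3* was -0.022 to 0.040, *Mpc1* -0.33 to 0.076 and *Mpc2* -0.034 to 0.14. The cause was not tested. The median of the members was -0.0004 with median-ratio scaling against -0.045. *Ldhb* and *Slc16a3* had no value with a mean of at least 5 FPKM. The count of genes called was 0 in the fit with all libraries (929 at an unadjusted p under 0.05) and 0 to 1251 when 1 library was left out, with 1251 without WT replicate 1 and 1 without KO replicate 1. Median-ratio scaling moved the median of all genes by less than 0.1 on the log2 scale. By voom on recovered reads 0 genes were called (833 at an unadjusted p under 0.05). With a pseudocount of 0.1, the KO minus WT difference of the log2 ratio was 0.68 for *Ldha* to *Ldhb* and -0.87 for *Slc16a3* to *Slc16a1*, against 0.31 and -0.39. The same-numbered libraries did not deviate together (correlations of -0.099, 0.14 and -0.28), so the numbers were not taken as pairing, and with a replicate block 0 genes were called (694 at an unadjusted p under 0.05). At 14 to 35 reads for *Ldhb* and 16 to 89 for *Slc16a3*, depth limits both genes.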
